A study of Mus musculus with 24 samples.

Results

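A set of 10 genes of hypothalamic fatty acid sensing, chosen by name from a fixed list, was examined, and all 10 were present among the 13998 genes of the deposited expression table. They encode the catalytic subunits of AMP-activated protein kinase (*Prkaa1* and *Prkaa2*), the acetyl-CoA carboxylases (*Acaca* and *Acacb*), malonyl-CoA decarboxylase (*Mlycd*), fatty acid synthase (*Fasn*), a stearoyl-CoA desaturase (*Scd2*) and the carnitine palmitoyltransferases (*Cpt1a*, *Cpt1c* and *Cpt2*). Their expression was measured by SAGE-Seq, which sequences a short tag near the 3′ end of each polyadenylated transcript, in the hypothalamus of 24 singly housed adult male F2 mice, with 1 library per mouse. The cross was between B6.CAST-17.1, a subcongenic strain that carries CAST/EiJ DNA on part of Chr 17, and C57BL/6J. Of the mice, 12 were homozygous for the CAST segment (*cast/cast*) and 12 for the C57BL/6J alleles there (*b6/b6*), and both groups were *b6/b6* over the rest of the genome. All had been offered a choice between a carbohydrate/protein (C/P) and a fat/protein (F/P) diet for 10 d, and had then been returned to chow for some weeks. They were killed about 48 h after the choice was offered again, following a fast of some hours. The groups are not random samples of their genotypes, since *cast/cast* mice were picked for high and *b6/b6* mice for low carbohydrate intake. C/P intake over the 10 d ran from 77.8 to 106.6 kcal in the *cast/cast* mice and from 27.4 to 41.0 kcal in the *b6/b6* mice, and F/P intake from 0.6 to 49.8 and from 60.0 to 80.4 kcal. Neither range overlapped between the groups, so genotype and diet intake cannot be told apart in any comparison of the groups.

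Fatty acids and their CoA esters act in the hypothalamus as signals of nutrient supply. AMP-activated protein kinase, active when cellular energy is low, phosphorylates and inhibits the acetyl-CoA carboxylases, which make malonyl-CoA. Malonyl-CoA is the substrate of fatty acid synthase and the inhibitor of carnitine palmitoyltransferase 1, the step that admits long-chain fatty acids to mitochondria, and malonyl-CoA decarboxylase removes it.

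The 10 genes lie on Chr 4, 5, 7, 8, 11, 15 and 19, none of them on Chr 17, so mice of both genotypes carry the same C57BL/6J alleles of each. What SAGE-Seq counts for each gene is a tag that begins at a CATG, the site of the anchoring enzyme of the method. The tags below are those predicted from the last CATG of the transcript of each gene. They are shown as the stretch that the values below would stand for if the counted tags came from that site. CATG is in capitals, sequences are from the GENCODE transcripts, and positions are on GRCm38, the build of the deposited table. The deposited table itself holds no tag sequences.
Prkaa1: CATGatgaatggaatgccacacacagc
Prkaa2: CATGttttctaaatggagaacattttc
Acaca: CATGcagggttactgaggaggagggtg
Acacb: CATGgctggaggagagttactgcctcg
Mlycd: CATGattgttcactgtacacctttaag
Fasn: CATGcagcagtagaaaagactaagttg
Scd2: CATGcaggactccgtttccttccttgg
Cpt1a: CATGtgtgaacgaatatagctgaccat
Cpt1c: CATGggggaaaacgcaatcaccttcca
Cpt2: CATGtagctggaaggtaccatcttgtc

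The tags lie on the plus strand at chr15:5181756-5181782 (*Prkaa1*), chr11:84401442-84401468 (*Acaca*), chr5:114250228-114250254 (*Acacb*), chr8:119411072-119411098 (*Mlycd*), chr19:44306701-44306727 (*Scd2*) and chr19:3385681-3385707 (*Cpt1a*). Those of *Prkaa2* (chr4:105030648-105030674), *Fasn* (chr11:120806002-120806028), *Cpt1c* (chr7:44959875-44959901) and *Cpt2* (chr4:107904156-107904182) lie on the minus strand. Of the 10 tags, 9 fall in the 3′ UTR, and that of *Cpt1c* falls in coding sequence. The distance from the start of the tag to the end of the transcript ran from 31 bases in *Mlycd* to 801 bases in *Prkaa2*, and the *Mlycd* tag runs past the end that the deposited table gives for that gene. For *Cpt1c* the reference gene reaches to chr7:44958483, past the end at chr7:44959371 in the deposited table. Sequence beyond the end of each transcript used was not searched for a later CATG. None of the 10 tags occurs in the transcripts of any other gene. Close relatives have tags that are easily separated: of 27 bases, 17 differ between *Cpt1a* and *Cpt1c*, 17 between *Prkaa1* and *Prkaa2*, 19 between *Acaca* and *Acacb*, and 16, 16 and 15 between *Scd2* and *Scd1*, *Scd3* and *Scd4*.

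Libraries held 7754202 to 13082873 tag hits on genes, and each value is a tag hit count scaled by the authors with the size factor of DESeq, called a normalized count below. Of 13 hypothalamic markers, 12 were in the table, and their sum ran from 10858 to 29068 normalized counts among *b6/b6* mice and from 5656 to 32052 among *cast/cast* mice. All 6 thalamus and all 5 choroid plexus markers were also present, so presence alone does not identify the tissue. The thalamus sum ran from 229 to 1214 among *b6/b6* mice and from 247 to 800 among *cast/cast* mice. The *b6/b6* mice 6 and 12 stood apart from the other mice. Their median rank correlations with the other libraries were 0.901 and 0.872, against 0.892 in *cast/cast* mouse 6 and at least 0.923 in the other mice. They also had the highest sums over the 3 blood markers in the table, 4999 and 1704 normalized counts against 105 to 1044 in the other 22 mice, and microglial sums of 1731 and 1840 against 2204 to 5657. Results that rest on these mice are given with and without them. Differences between genotypes are log2 fold changes of *cast/cast* minus *b6/b6* from limma on log2(normalized count + 1), with *P* adjusted over all 13998 genes. A gene was called at an unadjusted *P* of at most 0.01 with a ratio of means of at least 1.5.

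None of the 10 genes was called by limma, where 1.49% of all genes were (0.471% higher and 1.01% lower in *cast/cast*), and none was called by edgeR or DESeq2 on the tag hits. At an unadjusted *P* under 0.05 there were 2 of the 10, *Cpt2* higher and *Mlycd* lower in *cast/cast* mice, beside 8.13% of all genes (3.76% higher and 4.37% lower). At an unadjusted *P* of at most 0.01 there was *Cpt2*, beside 2.04% of all genes, and none of the 10 passed an adjusted *P* of 0.05, which 0.572% of all genes did. The lowest adjusted *P* of the 10 was 0.469, for *Cpt2*. For no gene of the 10 were the genotypes free of overlap, as they were for 0.336% of all genes. The log2 fold changes ran from -0.64 (*Cpt1c*) to 0.71 (*Cpt2*) with a median of -0.10, beside a median of -0.02 over all genes. Since the hypothalamus was measured whole, fewer cells of a type and less RNA per cell cannot be told apart.

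**Figure D1:**
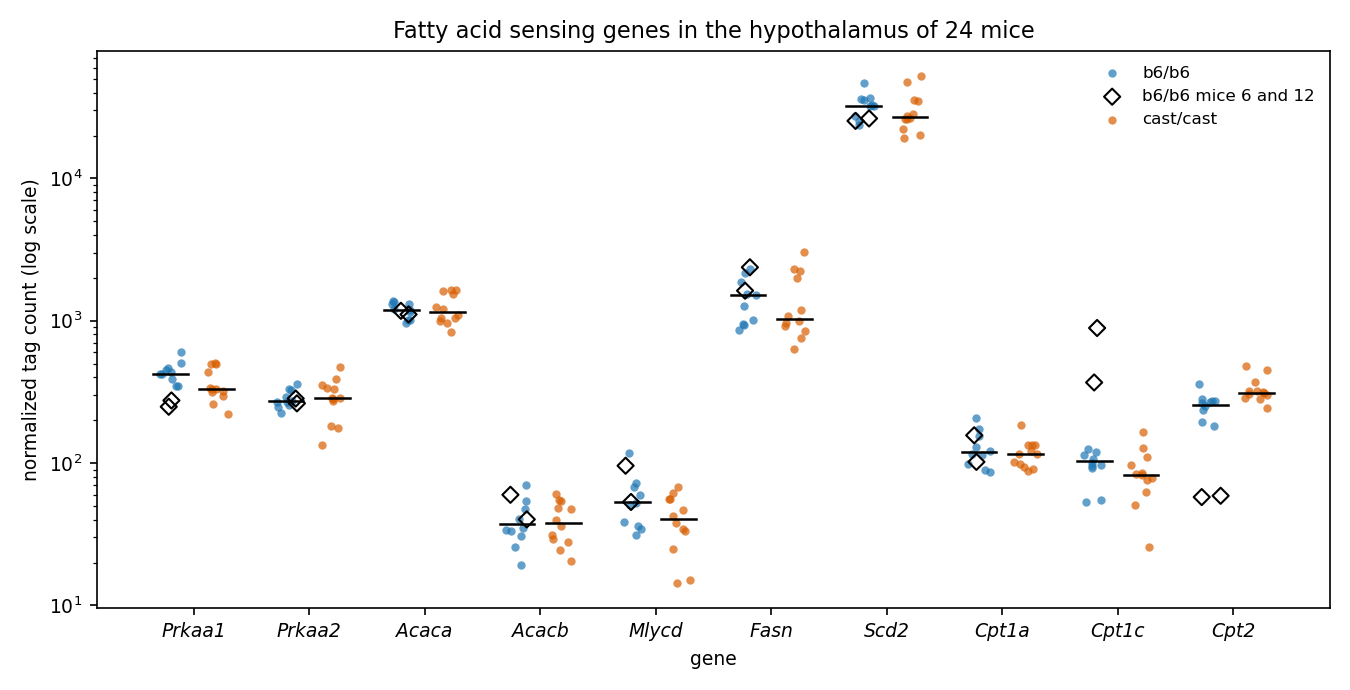
Normalized tag counts (log scale) of the 10 genes in each of 12 b6/b6 (blue) and 12 cast/cast (orange) mice, with the median of each group as a black bar and b6/b6 mice 6 and 12 as open diamonds. The groups overlap for every gene, and the diamonds lie outside all other mice for Cpt1c (368 and 889) and Cpt2 (58.9 and 57.6).

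The levels of the 10 genes spanned a wide range. Since a transcript yields a tag whatever its length, normalized counts were compared between genes without scaling by length. *Scd2*, which places a double bond in saturated acyl-CoA and is the main desaturase of brain, had a mean of 31187 normalized counts and ranked 16 among the 13998 genes. *Fasn* (1471) and *Acaca* (1211) followed, then *Prkaa1* (386), *Prkaa2* (287), *Cpt2* (279), *Cpt1c* (136), *Cpt1a* (123), *Mlycd* (50.01) and *Acacb* (40.2). *Scd2* exceeded *Fasn*, *Acaca* exceeded *Prkaa1* and *Cpt1a* exceeded *Mlycd* in 24 of 24 mice, and *Prkaa1* exceeded *Prkaa2* and *Cpt2* exceeded *Cpt1c* in 22. The other neighbours in this order changed places between mice. *Fasn* exceeded *Acaca* in 15 mice, *Mlycd* exceeded *Acacb* in 15 and *Prkaa2* exceeded *Cpt2* in 16. The mean of *Cpt1c* lay above that of *Cpt1a* although *Cpt1c* was the higher of the pair in only 7 of 24 mice.

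Neither kinase subunit passed the test between the genotypes. *Prkaa1* encodes the α1 and *Prkaa2* the α2 catalytic subunit, the part of the kinase trimer that phosphorylates acetyl-CoA carboxylase. *Prkaa1* had a lowest, median and highest value of 249, 422 and 599 normalized counts among *b6/b6* mice and 220, 331 and 504 among *cast/cast* mice. The log2 fold change was -0.18 ± 0.16 (SE, n = 12 mice a genotype, limma unadjusted *P* = 0.249, adjusted *P* = 0.735), and the ranges overlapped over most of their length. Without *b6/b6* mice 6 and 12, whose 249 and 275 were the lowest *Prkaa1* values of their group, it was -0.31 (unadjusted *P* = 0.0458, limma adjusted *P* = 0.9996). For *Prkaa2* the values were 225, 272 and 357 among *b6/b6* mice and 135, 286 and 475 among *cast/cast* mice. The *cast/cast* mice covered the entire *b6/b6* range and passed it at both ends, and the means of 282 ± 37.8 (SD) and 292 ± 95.8 gave a log2 fold change of -0.02 with a 95% interval of -0.36 to 0.32, which turned to 0.04 in edgeR and 0.05 in DESeq2. *Prkaa2* took 41.5 ± 6.82% (SD, n = 12) of the tag hits of both subunits among *b6/b6* mice and 44.2 ± 5.22% among *cast/cast* mice, a difference of 2.69 percentage points (permutation test, two-sided, 100000 resamples, *P* = 0.290, adjusted over 3 such shares 0.435). The study number, which the labels give for each mouse, was lower in *cast/cast* (median 120.5) than in *b6/b6* mice (269.5), and the difference in this share had opposite signs on either side of 121. In mice with numbers above 121 the difference was 7.94 points (permutation *P* = 0.0127, adjusted 0.0381, 7 *b6/b6* and 5 *cast/cast* mice), and in those with numbers up to 121 it was -3.85 points (permutation *P* = 0.254), a change between the sets of mice that was itself not tested. The lower set includes *b6/b6* mice 6 and 12. With only these 2 mice left out, the difference was 4.62 points (permutation *P* = 0.0594, adjusted 0.178, 10 *b6/b6* and 12 *cast/cast* mice).

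Malonyl-CoA turnover is set by carboxylases that make it and the decarboxylase that removes it. *Acaca*, the cytosolic carboxylase of fatty acid synthesis, had values of 958, 1180 and 1371 normalized counts (lowest, median and highest) among *b6/b6* mice and 829, 1156 and 1649 among *cast/cast* mice. Of the *cast/cast* mice, 4 lay above and 1 below every *b6/b6* mouse, and the log2 fold change of 0.04 (95% interval -0.21 to 0.30) turned to -0.05 with every library set to an equal total. *Acacb*, the mitochondrial carboxylase whose product is placed next to carnitine palmitoyltransferase 1, had the lowest mean of the 10 genes, with values of 19.3, 37.6 and 70.1 among *b6/b6* mice and 20.5, 38.0 and 61.0 among *cast/cast* mice. The *cast/cast* range lay inside that of *b6/b6* (log2 fold change -0.04, 95% interval -0.47 to 0.40). *Acaca* therefore took nearly all hits of the carboxylase pair in every mouse, 96.7 ± 1.03% (SD, n = 12) among *b6/b6* mice and 96.8 ± 1.33% among *cast/cast* mice (permutation *P* = 0.862).

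*Mlycd*, whose product converts malonyl-CoA back to acetyl-CoA, was measured at 31.05, 53.0 and 117 normalized counts among *b6/b6* mice and at 14.5, 40.3 and 68.3 among *cast/cast* mice. Its highest values, 117 and 95.7, came from *b6/b6* mice 10 and 12 and its lowest, 14.5 and 15.1, from *cast/cast* mice 10 and 1, while the remaining mice of both genotypes lay between 24.9 and 72.3. The means of 59.1 ± 26.0 (SD) and 40.9 ± 17.6 gave a log2 fold change of -0.55 ± 0.26 (SE, limma unadjusted *P* = 0.0438, adjusted *P* = 0.607), which was -0.48 (unadjusted *P* = 0.0926) without *b6/b6* mice 6 and 12. In mice with study numbers up to 121 it was -0.93 (limma unadjusted *P* = 0.0339, adjusted *P* = 0.281) and in those above -0.10 (unadjusted *P* = 0.760). *Mlycd* thus passed neither the threshold for a call nor the adjusted one.

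*Fasn*, which builds palmitate from malonyl-CoA, ran from 859 through a median of 1522 to 2373 normalized counts among *b6/b6* mice and from 636 through 1036 to 3017 among *cast/cast* mice. Of the *cast/cast* mice, 8 lay at or below 1190 and the other 4 between 1980 and 3017, a spread wider than the distance between the group means (1534 ± 550 and 1409 ± 771, SD). The log2 fold change was -0.21 ± 0.25 (SE, limma unadjusted *P* = 0.397, adjusted *P* = 0.809). *Scd2* ran from 23770 through 32469 to 46832 among *b6/b6* mice and from 19131 through 27056 to 52347 among *cast/cast* mice. Both the lowest and the highest *Scd2* value were therefore from *cast/cast* mice, and the log2 fold change of -0.09 had a 95% interval of -0.43 to 0.24.

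With all mice, *Cpt2* and *Cpt1c* had the largest log2 fold changes of the 10 genes and *Cpt1a* one of the smaller, and without *b6/b6* mice 6 and 12 *Mlycd* had the largest. *Cpt1a*, the form of the outer mitochondrial membrane that malonyl-CoA inhibits, had values of 85.9, 119 and 209 normalized counts among *b6/b6* mice and 87.8, 115 and 186 among *cast/cast* mice (log2 fold change -0.11, 95% interval -0.43 to 0.21). *Cpt1c*, the brain form, which resides in the endoplasmic reticulum and binds malonyl-CoA with little transferase activity, had values of 52.9, 104 and 889 among *b6/b6* mice and 25.8, 83.0 and 165 among *cast/cast* mice. Its range in *b6/b6* mice was set by 2 animals. Mouse 12 had 889 and mouse 6 had 368 normalized counts of *Cpt1c*, while the other 10 *b6/b6* mice lay between 52.9 and 125, inside the *cast/cast* range. With all mice the log2 fold change of *Cpt1c* was -0.64 ± 0.35 (SE, limma unadjusted *P* = 0.0777, adjusted *P* = 0.621), and without mice 6 and 12 it was -0.21 ± 0.24 (unadjusted *P* = 0.388). Without the 2 least similar mice, *cast/cast* mouse 6 and *b6/b6* mouse 12, it was -0.33 (limma unadjusted *P* = 0.248). The estimate for *Cpt1c* was -1.07 in edgeR (unadjusted *P* = 0.0117, adjusted *P* = 0.307) and -0.44 in DESeq2 (unadjusted *P* = 0.114), and in limma -1.16 in mice with study numbers up to 121 and -0.18 in those above. *Cpt1c* took 49.3 ± 17.6% (SD, n = 12) of the hits of *Cpt1a* and *Cpt1c* among *b6/b6* mice and 41.7 ± 12.1% among *cast/cast* mice, a difference of -7.69 points (permutation *P* = 0.230) that was -1.23 points without mice 6 and 12, in which the share was 78.3% and 85.0%.

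*Cpt2*, the enzyme of the inner mitochondrial membrane that returns acyl groups from carnitine to CoA, was the gene with the lowest *P*. It had values of 57.6, 257 and 356 normalized counts among *b6/b6* mice and 243, 311 and 481 among *cast/cast* mice. The same 2 *b6/b6* animals stood apart in the other direction, with 58.9 in mouse 6 and 57.6 in mouse 12, and the remaining 10 lay between 183 and 356, of which 3 fell below the lowest *cast/cast* value. Means were 225 ± 89.3 (SD) and 332 ± 70.0, a ratio of 1.48 that lies just under the 1.5 required for a call. The log2 fold change of *Cpt2* was 0.71 ± 0.25 (SE, 95% interval 0.20 to 1.22, limma unadjusted *P* = 0.00796, adjusted *P* = 0.469). Without mice 6 and 12 it was 0.36 ± 0.13 (unadjusted *P* = 0.0107, limma adjusted *P* = 0.717), a smaller difference with a smaller error, and the ratio was 1.29. Without the 2 least similar mice, *cast/cast* mouse 6 and *b6/b6* mouse 12, it was 0.51 (limma unadjusted *P* = 0.0241, adjusted *P* = 0.699). In the mice with study numbers up to 121, which include *b6/b6* mice 6 and 12, *Cpt2* was called, at 1.36 (limma unadjusted *P* = 0.00346, adjusted *P* = 0.277, 5 *b6/b6* and 7 *cast/cast* mice). Among mice with higher numbers, it was 0.19 (limma unadjusted *P* = 0.312, adjusted *P* = 0.901). With study number as a covariate over all mice, *Cpt2* was at 0.86 ± 0.23 (SE, limma unadjusted *P* = 0.000883, adjusted *P* = 0.121), where the ratio used for a call is still that of the unadjusted means.

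**Figure D2:**
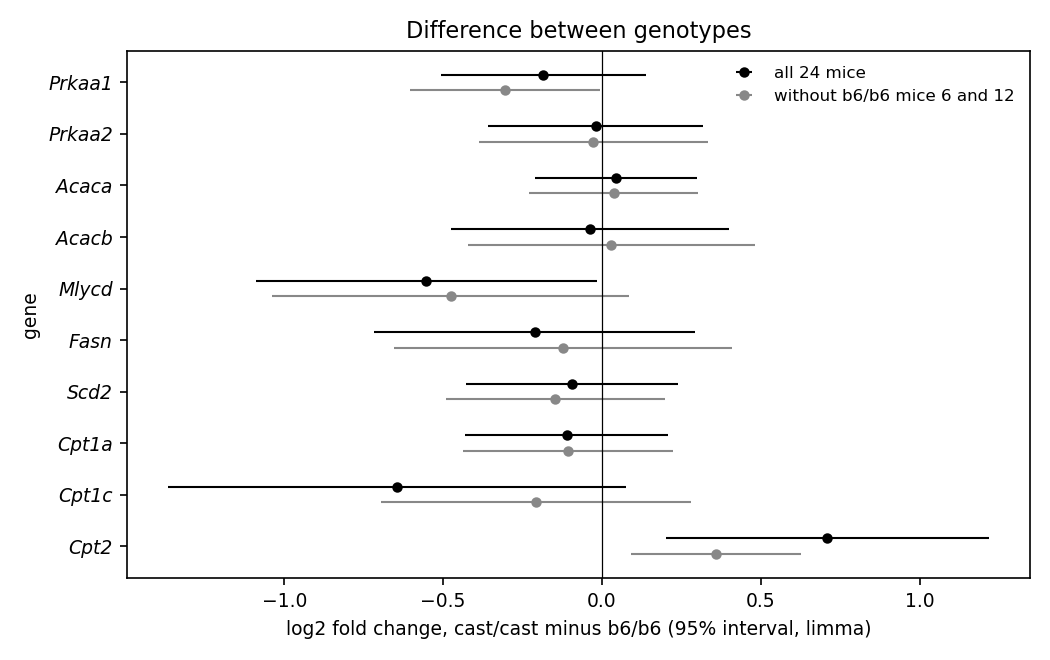
Log2 fold change of each gene, cast/cast minus b6/b6, with its 95% interval from limma, for all 24 mice (black) and without b6/b6 mice 6 and 12 (grey). The estimate for Cpt2 moves from 0.71 to 0.36 and that for Cpt1c from -0.64 to -0.21, and the intervals that leave out 0 are those of Cpt2 in both fits, Mlycd with all mice and Prkaa1 without mice 6 and 12.

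*Cpt1c* and *Cpt2* ran opposite to each other across mice. After the genotype means were removed, their log2 values had *r* = -0.85 and rho = -0.84 over the 24 mice (permutation *P* = 0.00012 and 1e-05, the second being the smallest that 100000 resamples can give, adjusted over the 45 pairs of the 10 genes 0.00180 and 0.000450). An *r* with *Cpt2* this far below 0 was found for 0.922% of all genes. With the 2 mice farthest from the median left out *r* was -0.64, and without *b6/b6* mice 6 and 12 it was -0.56. The mouse at the opposite end was *cast/cast* mouse 1, with the lowest *Cpt1c* (25.8) and the highest *Cpt2* (481). No such relation appeared between *Cpt1c* and *Cpt1a* (*r* = 0.01, permutation *P* = 0.964) or between *Cpt1a* and *Cpt2* (*r* = 0.14, permutation *P* = 0.566). The part of library quality in the relation was not tested. Mice 6 and 12 had the lowest microglial sums and the highest blood sums of all 24, and their depths, 8868835 and 7754202 tag hits, were at the low end of the range.

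**Figure D3:**
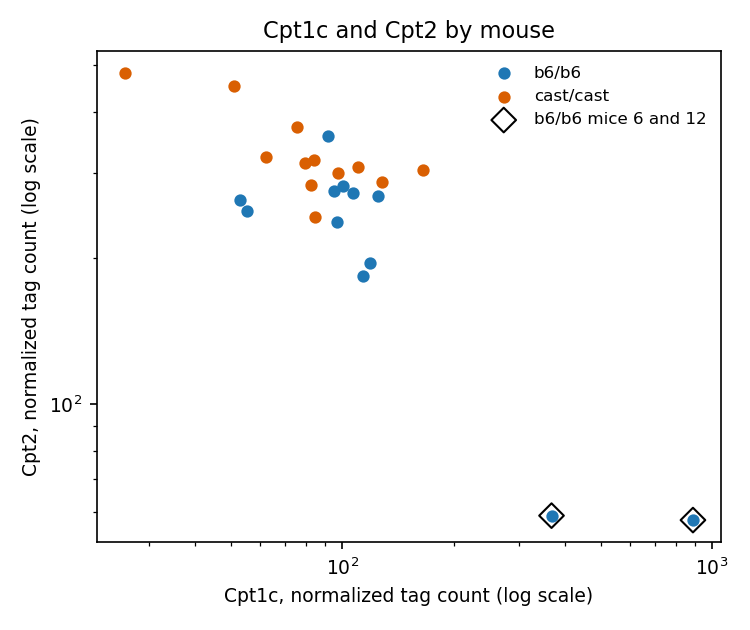
Cpt2 against Cpt1c in each mouse, in normalized tag counts on log scales, with b6/b6 in blue, cast/cast in orange and b6/b6 mice 6 and 12 outlined. Cpt2 falls as Cpt1c rises (r = -0.85 after removal of genotype means), and the outlined mice lie far from the rest at the lower right.

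Most of the other correlated pairs were positive. Among the 45 pairs, 12 had a Pearson correlation with an adjusted *P* of at most 0.05, of which 11 were positive. For these 11, from 2.35% (*Acaca* with *Scd2*) to 19.8% (*Scd2* with *Cpt2*) of all genes had an *r* at least as high with the second gene of the pair. The share of all gene pairs that would pass was not computed. The strongest positive pair was *Acaca* and *Scd2* (*r* = 0.82, rho = 0.79, adjusted permutation *P* = 0.000450 for both), followed by *Scd2* with *Prkaa1* (*r* = 0.73, rho = 0.76), with *Prkaa2* (*r* = 0.71, rho = 0.64) and with *Fasn* (*r* = 0.69, rho = 0.61). *Acaca* and *Fasn*, successive enzymes of palmitate synthesis, had *r* = 0.62 (rho = 0.54), which was 0.48 without the 2 mice farthest from the median. For *Prkaa1* and *Fasn* *r* was 0.57 with all mice and 0.84 without *b6/b6* mice 6 and 12. *Prkaa1*, *Prkaa2*, *Acaca*, *Fasn* and *Scd2*, grouped here after their values were seen, had *r* of 0.46 to 0.82 in all 10 of their pairs, and of 0.23 to 0.71 when libraries were rescaled to the same total. Without the 2 mice farthest from the median, *r* in these pairs was 0.29 (*Prkaa2* with *Fasn*) to 0.76 (*Acaca* with *Scd2*). The library of *cast/cast* mouse 6, among the least similar, had the highest *cast/cast* values of *Prkaa1* (504), *Prkaa2* (475), *Fasn* (3017) and *Scd2* (52347). Many other genes varied with these 5 genes, as 2.35% of all genes had an *r* with *Scd2* at least as high as that of *Acaca*, and 10.3% had one with *Fasn* as high as that of *Acaca*. Not every pair among the 5 passed, as *Prkaa2* and *Fasn* (*r* = 0.46) had an adjusted permutation *P* of 0.123, and *Fasn* was as close to *Acacb* (*r* = 0.46, adjusted 0.0873) and to *Cpt1a* (*r* = 0.48, adjusted 0.0598). *Cpt2* was positive with *Prkaa1* (*r* = 0.56, adjusted permutation *P* = 0.0256, and 0.20 without *b6/b6* mice 6 and 12) and with *Scd2* (*r* = 0.44, adjusted 0.0270, and 0.57 without them). *Acaca* was not correlated with its relative *Acacb* (*r* = 0.07, permutation *P* = 0.732).

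The same 5 genes were correlated with a marker sum of the libraries. Across mice, after removal of genotype means, each fell as the summed oligodendrocyte markers rose (all 8 in the table, 14341 to 48232 normalized counts among *b6/b6* mice and 15818 to 38327 among *cast/cast* mice). The correlation with this sum was -0.63 for *Acaca* (rho -0.60, adjusted over 30 correlations, permutation *P* = 0.0192), -0.63 for *Scd2* (rho -0.75, adjusted 0.0192), -0.60 for *Prkaa1* (rho -0.71, adjusted 0.0220), -0.58 for *Fasn* (rho -0.56, adjusted 0.0247) and -0.51 for *Prkaa2* (rho -0.62, adjusted 0.0423). No other Pearson correlation of the 30 with oligodendrocyte, astrocyte and neuron sums passed. Without the 2 mice farthest from the median sum the 5 that passed ran from -0.52 to -0.68. The share of all genes at least as far below 0 with the oligodendrocyte sum was not computed. These correlations are therefore not shown to be particular to the 5 genes. With neuronal markers *Mlycd* came closest (*r* = 0.51, permutation *P* = 0.0125, adjusted 0.0625), and passed by rank (rho = 0.52, adjusted 0.0494), and *Cpt1a* was nearest with astrocyte markers (*r* = -0.46, permutation *P* = 0.0303, adjusted 0.130). Libraries also differed in the balance between genes of long (at least 4778 bases) and short transcripts (up to 2108 bases), expressed as a log2 index that ran from -0.10 to 0.35 among *b6/b6* mice and from -0.68 to 0.46 among *cast/cast* mice. This index, added after the values were seen, had *r* = 0.84 with *Prkaa2*, 0.68 with *Scd2*, 0.56 with *Acaca*, 0.53 with *Fasn* and 0.45 with *Prkaa1*, and between -0.16 and 0.15 with the other 5 genes. Of these, *Prkaa2* and *Scd2* passed (adjusted permutation *P* = 0.000900 and 0.00725, with 0.179% and 2.94% of all genes at least as high), while *Acaca* (0.0618, 7.75%), *Fasn* (0.0583, 8.88%) and *Prkaa1* (0.0645, 14.0%) did not, and *Prkaa1* had *r* = 0.22 without the 2 mice farthest from the median index. The first 5 have transcripts of 4655 to 10050 bases, as does *Acacb* with 8788, whose *r* was 0.13. The part of cell make-up and of the length balance in the correlations between genes was not tested. With the oligodendrocyte sum as a covariate of the genotype comparison *Cpt2* had a log2 fold change of 0.77 (limma unadjusted *P* = 0.00390, adjusted *P* = 0.254), and with the length index 0.65 (unadjusted *P* = 0.0192).

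**Figure D4:**
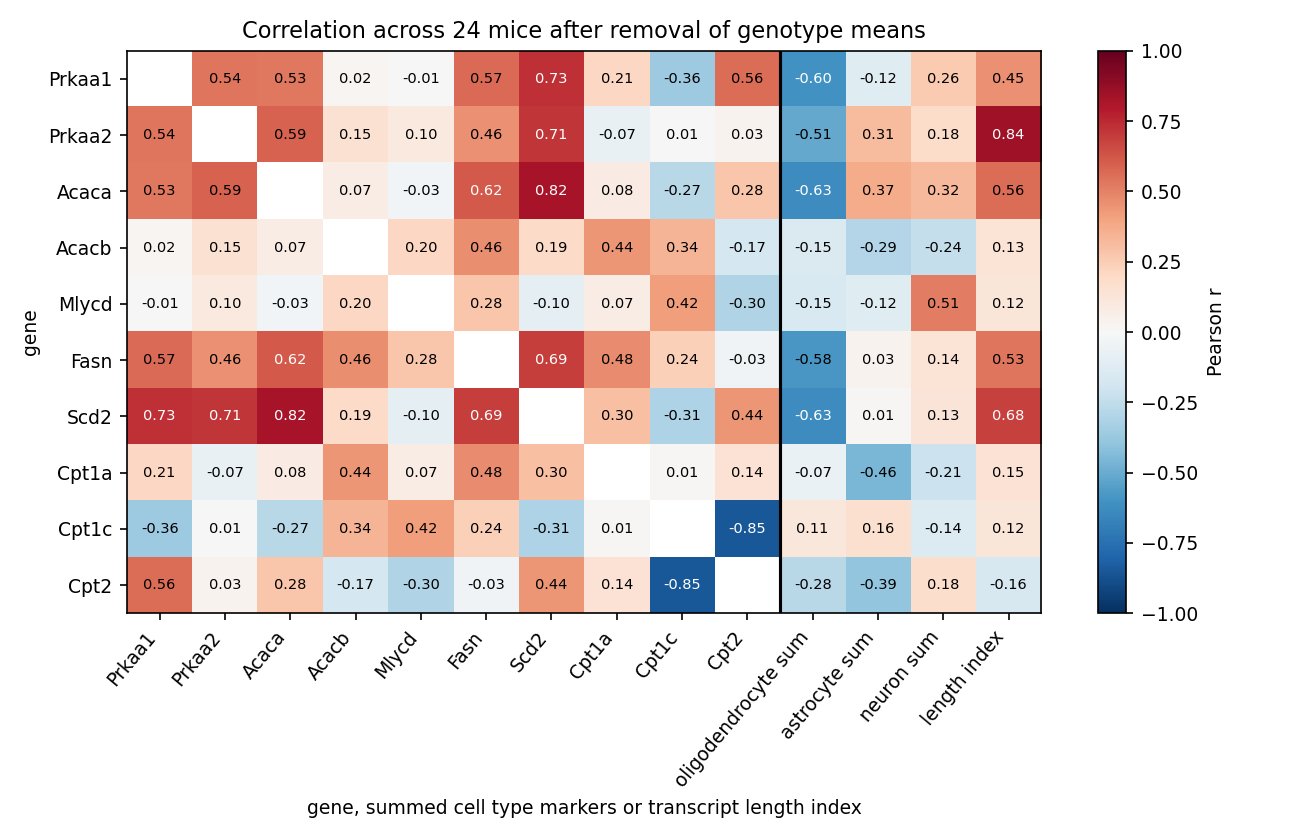
Pearson r across 24 mice, after removal of genotype means, between the log2 levels of the 10 genes (left of the line) and of each gene with the summed oligodendrocyte, astrocyte and neuron markers and the transcript length index (right of the line). Prkaa1, Prkaa2, Acaca, Fasn and Scd2 are positive with each other and negative with the oligodendrocyte sum, and Cpt1c with Cpt2 is the strongest negative pair.

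Intake was compared with expression within each genotype, over 40 correlations (10 genes, C/P and F/P kcal, 2 genotypes), as the mice of a genotype still differed in what they chose. The kcal are those of the 10 d test, before the return to chow, and not those of the last 48 h. None passed an adjusted *P* of 0.05 in the permutation test, by *r* or by rho, and by *r* 4 had an unadjusted *P* under 0.05. In *cast/cast* mice, 9 of the 10 genes had a negative *r* with F/P kcal, and in *b6/b6* mice 1 of the 10, beside 51.8% and 50.5% of all genes. The 10 genes are correlated with each other, so their signs are not independent, and the contrast of these counts was not tested. *Scd2* had the largest of these, *r* = -0.59 (rho = -0.59, n = 12, permutation *P* = 0.0420, adjusted 0.358), and *r* = -0.56 without the 2 mice farthest from the median intake. As many as 11.1% of all genes were at least as far from 0. *Prkaa2* (*r* = -0.56, rho = -0.64, permutation *P* of *r* = 0.0557) and *Prkaa1* (*r* = -0.55, rho = -0.67, permutation *P* of *r* = 0.0627) were close behind by *r*. By rank, the permutation *P* was 0.0299 for *Prkaa2* and 0.0198 for *Prkaa1* (adjusted 0.286 and 0.265). In *cast/cast* mice *Scd2* fell by 0.18 on the log2 scale per 10 kcal of F/P diet (SE 0.07, limma unadjusted *P* = 0.0237, adjusted *P* = 0.280). By this measure *Scd2* did not lead. The slope of *Prkaa2* was -0.20 (SE 0.07, limma unadjusted *P* = 0.0139, adjusted *P* = 0.256) and that of *Fasn* was -0.24 (SE 0.11, unadjusted *P* = 0.0470, adjusted *P* = 0.319). The *cast/cast* mouse that ate almost no F/P diet in the 10 d test, mouse 5 with 0.6 kcal, had 47743 normalized counts of *Scd2*, and mouse 6, with 33.0 kcal and the highest *Scd2* of all, had 52347.

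The slopes on F/P intake were then compared between genotypes by an interaction term. None of the 10 genes had an interaction *P* of at most 0.01 in limma, as 0.45% of all genes did, and none had one under 0.05, as 4.63% did. The lowest were those of *Fasn*, with a slope of -0.24 ± 0.11 per 10 kcal among *cast/cast* mice and 0.26 ± 0.24 among *b6/b6* mice (SE, interaction *P* = 0.0691, limma adjusted *P* = 0.769), and of *Scd2* (-0.18 and 0.14, interaction *P* = 0.0765). The interaction *P* of *Scd2* was 0.0461 with rescaled libraries and 0.0373 without the 2 least similar mice (limma adjusted *P* = 0.792 and 0.514). No gene of the whole table passed an adjusted *P* of 0.05 for this term, and 648 had an unadjusted *P* under 0.05. The other Pearson correlations with intake that had an unadjusted *P* under 0.05 were with C/P kcal in *b6/b6* mice. *Acacb* had *r* = -0.69 (rho = -0.70, permutation *P* = 0.0127, adjusted 0.358) and *Cpt1a* *r* = -0.62 (rho = -0.70, permutation *P* = 0.0311, adjusted 0.358), with 9.12% and 17.0% of all genes at least as far from 0. For *Cpt1c* *r* was -0.61 (permutation *P* = 0.0425) but rho was -0.09, and *r* was -0.10 without the 2 mice of most extreme intake. Mouse 12, which ate the least C/P diet of the *b6/b6* mice (27.4 kcal), was the mouse with 889 normalized counts of *Cpt1c*. In *cast/cast* mice *Cpt1c* had rho = -0.62 with C/P kcal (permutation *P* = 0.0357, adjusted 0.286), while *r* was -0.20 (permutation *P* = 0.525).

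**Figure D5:**
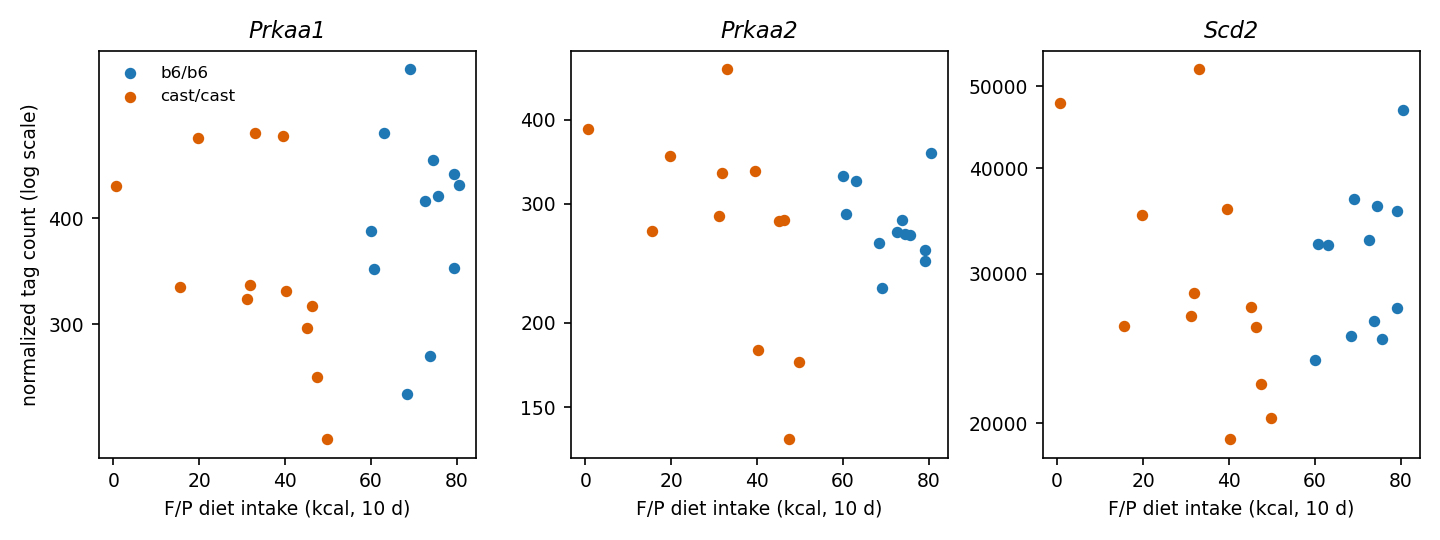
Normalized tag counts (log scale) of Prkaa1, Prkaa2 and Scd2 against the kcal eaten from the F/P diet over 10 d, for 12 b6/b6 (blue) and 12 cast/cast (orange) mice. In cast/cast mice r is -0.55, -0.56 and -0.59, none with an adjusted P of 0.05 or less, and in b6/b6 mice it is 0.05, -0.24 and 0.34.

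The rest of the pathway was examined in 5 lists of genes. Among AMPK regulatory subunits and upstream kinases, 11 of 12 genes were in the table, none was called, and the median log2 fold change was -0.17. *Strada*, the pseudokinase that activates LKB1, was the gene of that list with an unadjusted *P* under 0.05, at 69.8 ± 28.8 normalized counts (SD) among *b6/b6* mice and 46.8 ± 30.6 among *cast/cast* mice (log2 fold change -0.96, limma unadjusted *P* = 0.0432, adjusted *P* = 0.607). The regulatory β2 subunit *Prkab2* was at 47.7 ± 13.8 and 36.4 ± 14.6 (limma unadjusted *P* = 0.0508). Of the fatty acid synthesis and desaturation list, 23 of 24 genes were in the table, with 1 called, beside 1.49% of all genes, and a median of -0.06. At an unadjusted *P* under 0.05, 2 more were lower in *cast/cast* mice, beside 4.37% of all genes, and are named after their values were seen. They are the desaturase genes *Fads1*, with means of 1365 and 999 normalized counts for *b6/b6* and *cast/cast* (log2 fold change -0.40 ± 0.16, SE, limma unadjusted *P* = 0.0166, adjusted *P* = 0.543), and *Fads2*, with means of 53.2 and 21.8 (-0.98 ± 0.42, unadjusted *P* = 0.0284, adjusted *P* = 0.586). The called gene was *Mlxipl*, which encodes ChREBP, the carbohydrate-responsive transcription factor of lipogenic genes. It ran from 6.54 through 17.2 to 49.8 normalized counts among *b6/b6* mice and from 17.8 through 29.2 to 59.3 among *cast/cast* mice, so the groups overlapped over most of their range. *Mlxipl* was called as higher in *cast/cast* mice with a log2 fold change of 0.76 ± 0.27 (SE, limma unadjusted *P* = 0.00855, adjusted *P* = 0.472), a call that was lost when libraries were rescaled and when *b6/b6* mouse 6, mouse 12 or both were left out. *Fasn* and *Acaca*, known targets of ChREBP in liver, had log2 fold changes of -0.21 and 0.04.

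The carnitine shuttle and mitochondrial β-oxidation list had all 17 genes in the table, with none called by limma, none at an unadjusted *P* under 0.05, and a median of -0.02. Its lowest *P* was that of *Eci1*, an enoyl-CoA isomerase of unsaturated fatty acid oxidation (51.1 ± 48.9 and 28.5 ± 12.2 normalized counts, SD, limma unadjusted *P* = 0.101), next to *Acads*, the short-chain acyl-CoA dehydrogenase (47.4 ± 47.0 and 22.9 ± 10.1, unadjusted *P* = 0.106). The medians of *Eci1* had the opposite order, 27.1 among *b6/b6* and 32.1 among *cast/cast* mice, and its highest *b6/b6* value was 172. For *Acads* the medians were 37.9 and 22.7, and the highest *b6/b6* value was 167. In the list of fatty acid uptake, activation and binding, 14 of 16 genes were in the table, none was called and the median was -0.17. *Acsl4*, an acyl-CoA synthetase that prefers arachidonic acid, had an unadjusted *P* under 0.05 there, at 228 ± 42.5 among *b6/b6* mice and 185 ± 36.6 among *cast/cast* mice (log2 fold change -0.31, limma unadjusted *P* = 0.0249, adjusted *P* = 0.586). Of 8 transcriptional and mitochondrial regulators, 7 were in the table and none was called, with a median of -0.06. The deacetylase gene *Sirt1* was at 42.4 ± 14.9 and 30.8 ± 14.8 normalized counts (limma unadjusted *P* = 0.0407, adjusted *P* = 0.607), and the mitochondrial carrier *Ucp2* at 297 ± 162 and 228 ± 75.4 (unadjusted *P* = 0.211).

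For each of the 10 genes, the genes whose log2 levels followed it most closely across the 24 mice were sought by Pearson *r* after removal of genotype means. *Scd2* was followed by *Celf2* (*r* = 0.94), *Qk* (0.94) and *Gm10745* (0.94), and 47 genes had an *r* of at least 0.9 with it. *Fasn* was followed by *Atg2a* (0.95), *Lass4* (0.94) and *Slc29a3* (0.94), and *Acaca* by *Vps41* (0.92), *Madd* (0.90) and *Tspyl3* (0.89). The nearest genes of *Prkaa1* were *Cdkn1b* (0.94), *Uty* (0.94) and *Ddx42* (0.93), and those of *Prkaa2* were *Grm5* (0.90), *Man1a2* (0.89) and *Rbm27* (0.87). *Cpt2* had close company in *Avpi1* (0.96), *Pop5* (0.95) and *Ndufa2* (0.95), with 43 genes at 0.9 or more, but no gene reached 0.9 without *b6/b6* mice 6 and 12, when *Snw1* (0.87) led. For *Cpt1c* the nearest were *Trim28* (0.89), *Mapk8ip2* (0.88) and *Ensa* (0.88), none of which was among its nearest 3 without those mice. The genes of low level had looser neighbours, namely *Lsg1* (0.81), *Lzts2* (0.81) and *Gpt2* (0.79) for *Cpt1a*, *Evc* (0.78), *Safb2* (0.76) and *Myst3* (0.74) for *Acacb*, and *Septin6* (0.79, identified by its RefSeq accession), *Sema5b* (0.70) and *Rapgef3* (0.70) for *Mlycd*.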

How the data were processed

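Hypothalamus SAGE-Seq libraries of 24 mice were grouped by the genotype in the labels. The signal values deposited by the authors are tag hits per gene, mapped with modified SOLiD SAGE software to RefSeq and GRCm38 and divided by DESeq size factors. The fold changes, base means and *P* values of the authors' own comparison, also in the table, were not used. The 19529 rows hold 13998 genes, and repeated rows of a gene were used 1 time. All values (100%) were whole multiples of a step per library within 0.01 tag hits, so the hits could be recovered, 7754202 to 13082873 per mouse. How tags from sites other than the last CATG were assigned is not given in the sources used here. Floors (3 tag hits) cover counting error only. No gene of the table had a mean below 6.03.

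For genes whose mean reached 5, limma 3.58.1 (lmFit, eBayes with trend) was run on log2(value + 1), with Benjamini-Hochberg adjustment over all genes. Fold changes on this scale understate the changes of low genes. The alternatives comprised a pseudocount of 0.5 or 5, no minimum mean or one of 20, rescaled libraries, tests of the recovered hits in edgeR 4.0.16 and DESeq2 1.42.0, covariates (oligodendrocyte markers, study number), a split of the mice by study number, other call thresholds, and leaving out the 2 least similar mice. Leaving out *b6/b6* mice 6 and 12, and the length index as a covariate, were added after seeing the data. Shares and correlations were tested by permutation with 100000 resamples, two-sided, and within genotype for residuals. The fits were tested on simulated data. The 10 genes, the lists and the named list genes (those called in a list, or the 2 of lowest *P* where none was) and 3 nearest genes of each were chosen with earlier results of these data known. Tags were read from GENCODE transcripts matched by RefSeq accession. Scripts ran in R 4.3.3 and in Python 3.11.15 (scipy 1.17.1, pandas 2.3.3, matplotlib 3.10.9, numpy 2.4.6).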

Additional observations from a re-analysis of the deposited data

How the results depend on the processing

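The count of called genes among the 10 was 0 in every fit at the main thresholds except in mice with study numbers up to 121, where it was 1 (*Cpt2*, 1.36), and it was 2 at an unadjusted *P* under 0.05. The count of 1 called list gene became 0 with rescaled libraries, above study number 121, without the 2 least similar mice, without *b6/b6* mouse 6, 12 or both, and at an adjusted *P* of 0.05. It became 3 with edgeR and with DESeq2, 2 up to study number 121 and 6 at an unadjusted *P* under 0.05, which 8.13% of all genes had. Small log2 fold changes turned sign. *Prkaa1* was 0.14 and *Scd2* 0.0773 up to study number 121. *Prkaa2* was 0.0401 (edgeR), 0.0482 (DESeq2), 0.0533 (oligodendrocyte covariate), 0.0638 (above 121) and 0.18 (length index). *Acaca* was -0.0471 (rescaled). *Acacb* was 0.0184 without *b6/b6* mouse 12, 0.0297 without both mice 6 and 12, and 0.00287 with the length index, where *Scd2* was 0.0639. Without *b6/b6* mouse 6 alone *Acacb* kept its sign, at -0.0328. The *Prkaa2* share differed by -3.85 points up to study number 121 and by 7.94 above it, and the *Acaca* share by -0.0519 points without the 2 least similar mice and by -0.0856 without *b6/b6* mice 6 and 12. The cause was not tested. The other 196 values kept their direction and their side of the threshold, or, for counts, stayed within 1.5 times the main count. Among these, by Pearson *r*, the count of marker correlations that passed was 4 to 7 against 5, and that of intake correlations at an unadjusted *P* under 0.05 was 4 to 6 against 4. With covariates the ratio of means in a call stayed unadjusted, so those counts say little of *Cpt2*. Rescaling moved the median log2 fold change of all genes from -0.02 to -0.11. Over all genes, edgeR called 391 and DESeq2 395 against 208 with limma, and the counts were 137 without *b6/b6* mice 6 and 12 and 457 up to study number 121. No paired or blocked analysis was made, as the labels used here give neither the litter nor the cohort of a mouse. Replicate numbers are also absent from the labels, and those used here were assigned in sample order as names only. Depth limits *Acacb* and *Mlycd* most, the genes with the fewest hits per mouse.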
